A study of Mus musculus with 8 samples.

Results

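Microtubules are hollow polymers of alpha- and beta-tubulin, which join as a heterodimer before they enter the lattice. Each subunit is encoded by several genes, called isotypes, that differ mainly near the end of the protein and are used in tissue-specific mixtures. In hepatocytes microtubules carry secretory vesicles, lipoproteins and endosomes between the Golgi, the sinusoidal surface and the bile canaliculus. Cells also adjust tubulin mRNA to the amount of free tubulin, by a decay pathway that reads the start of the nascent chain.

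The tubulin genes described here are 4 alpha isotypes (Tuba1a, Tuba1b, Tuba1c and Tuba4a) and 5 beta isotypes (Tubb2a, Tubb2b, Tubb4b, Tubb5 and Tubb6), taken by symbol from 10 names. The remaining name, Tubb2c, is the older symbol of Tubb4b and is not listed in the count files, so 9 genes were found among 23337. The list was selected on earlier results of these same libraries, without a record of which values chose it, so the changes below describe the genes and are not independent evidence of a direction. Of the 9, 8 passed the filter on low counts and were tested among 14328 genes. The gene left out was Tubb2b, with between 0 and 8 reads in a library. A filter that keeps a gene on the strength of one group favours genes that differ, and the 8 are therefore not called all members.

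RNA was sequenced from liver of C57BL/6 mice aged 12 weeks, with 2 libraries in each of 4 groups: WT fasted, HRD1Alb fasted, WT refed and HRD1Alb refed. HRD1, encoded by Syvn1, is an E3 ubiquitin ligase of the endoplasmic reticulum. HRD1Alb mice (genotype label Hrd1-/-) carry floxed HRD1 alleles and Alb-Cre, which the albumin promoter drives in hepatocytes, while other liver cells keep the gene. The mice labelled WT are, in the study's description, floxed controls without Cre. Fasting was overnight, and refeeding lasted 4 h. The fasted and refed groups rest on the treatment label, since the protocol text given for every sample, fasted ones included, names both the fast and the meal. The labels do not say that the libraries came from separate animals, so p-values measure only the spread between these samples, which may be technical. In bulk tissue, fewer cells of a type and less RNA per cell cannot be told apart.

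Total counts ran from 40210576 to 49117080 per library. Replicates correlated at Spearman 0.990 to 0.995 over tested genes, except the refed HRD1Alb pair at 0.955, in which 2129 genes differed at least 2-fold against 94 to 333 in the other pairs. The log ratio of that pair fell with transcript length (Spearman −0.58 over 12968 genes, against −0.13 to 0.03 elsewhere). Syvn1, the deleted gene, was at 111 and 99.8 CPM (counts scaled to an equal library size) in WT fasted liver and 32.6 and 31.5 CPM in HRD1Alb fasted liver. In refed liver it was at 637 and 305 CPM in WT and at 453 and 132 CPM in the libraries labelled HRD1Alb, so replicate 1 of the latter lay above replicate 2 of WT. The refed genotypes are therefore not separated by this gene, both refed libraries labelled HRD1Alb lay above both WT fasted ones, and Syvn1 itself was called higher for refeeding in liver labelled HRD1Alb (log2 fold change 3.19 ± 0.59, adjusted p = 0.0213, edgeR). Every direction below that uses the refed libraries labelled HRD1Alb rests on the labels. The macrophage marker Cd68 was at 1.92 to 2.41 CPM in WT and 8.21 to 11.7 CPM in HRD1Alb fasted liver. In the refed libraries as labelled it was at 2.59 to 2.73 and 9.51 to 11.9 CPM. Cd68 is named because it was called between these labels, so its separation is no check of them. Of all tested genes 30.6% in fasted and 30.7% in refed liver were higher in both HRD1Alb libraries, with 34.2% and 30.1% lower in both. Which exons Cre removes is not given in the sources used here.

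The coding starts are printed because tubulin mRNA decay reads the start of the chain that they encode. The first 12 coding bases are in capitals and the next 18 in lower case, from GENCODE M21 on GRCm38.
Tuba1a: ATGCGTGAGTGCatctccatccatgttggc
Tuba1b: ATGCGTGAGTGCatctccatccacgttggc
Tuba1c: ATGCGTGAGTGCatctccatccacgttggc
Tuba4a: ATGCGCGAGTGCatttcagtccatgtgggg
Tubb2a: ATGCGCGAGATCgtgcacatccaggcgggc
Tubb2b: ATGCGAGAGATCgtgcacattcaggcgggc
Tubb4b: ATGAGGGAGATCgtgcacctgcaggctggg
Tubb5: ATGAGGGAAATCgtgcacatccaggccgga

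The capitals fall into an alpha and a beta form. Tuba1a, Tuba1b and Tuba1c share one set of 12 bases and Tuba4a has its own, and the printed beta genes vary among themselves. The alpha capitals all encode Met-Arg-Glu-Cys and the printed beta capitals Met-Arg-Glu-Ile. These base differences within each form thus leave the encoded residues unchanged. Over whole coding sequences the alpha members are 84.7% to 98.3% identical, the beta members 80.2% to 96.5%, and an alpha and a beta member 57.4% to 59.4%. The closest pair is Tuba1a and Tuba1b at 98.3%, and the closest beta pair is Tubb2a and Tubb2b at 96.5%.

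This likeness limits what the counts can separate. Of the windows of 75 bases in the longest coding transcript, 70.4% in Tuba1a, 78.3% in Tuba1b and 56.7% in Tuba1c also occur in a transcript of another gene. The share was 43.2% in Tubb2a, 32.2% in Tubb2b and 40.9% in Tubb4b, the last mostly with the pseudogene Tubb4b-ps1. It was 0 in Tubb5 and in Tubb6. Read length and the handling of reads with several matches are not given in the sources used here, so the split among Tuba1a, Tuba1b and Tuba1c and between Tubb2a and Tubb2b is uncertain. In Tuba4a 47.2% of windows lie in the overlapping gene Stk16 on the other strand. Stk16 ranged from 76.4 to 123 CPM over the 8 libraries and passed the test in none of the 4 comparisons of groups (adjusted p 0.35 to 0.98, edgeR).

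The genes sit in a few places. Tuba1b (chr15:98931425-98934565), Tuba1a (chr15:98949837-98953703) and Tuba1c (chr15:99029891-99038110) are neighbours, with Tuba1c on the opposite strand to the other two. Tubb2a (chr13:34074274-34078007) and Tubb2b (chr13:34126748-34130466) lie near each other on the minus strand. Tuba4a (chr1:75214228-75219865), Tubb4b (chr2:25222160-25224702) and Tubb5 (chr17:35833921-35838306) stand alone. Every member is annotated as protein coding with 4 exons in its longest transcript.

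Per kilobase of longest transcript, 4 genes made up most of the tubulin message of the members. In WT fasted liver Tubb2a was at 57.6 ± 4.02 CPM per kb (SD, n = 2), Tubb4b at 43.6 ± 6.07, Tuba4a at 41.0 ± 1.47 and Tubb5 at 18.1 ± 0.303. Tuba1c followed at 8.84 ± 0.189 CPM per kb, Tubb6 at 5.54 ± 0.250, Tuba1b at 1.57 ± 0.0473 and Tuba1a at 0.327 ± 0.149. The ranges of Tubb4b and Tuba4a overlapped and those of the other neighbours in this order did not. In HRD1Alb fasted liver the 4 leading genes did not overlap, with Tubb2a at 47.6 ± 1.09, Tuba4a at 38.0 ± 3.24, Tubb4b at 30.8 ± 1.90 and Tubb5 at 23.0 ± 2.29 CPM per kb.

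In WT refed liver the order at the top was Tubb4b (92.3 ± 6.00 CPM per kb, SD, n = 2), Tuba4a (90.6 ± 1.35) and Tubb2a (72.6 ± 16.7), with Tubb4b and Tuba4a overlapping. In the refed libraries labelled HRD1Alb Tubb2a was at 106 ± 14.0 CPM per kb, Tuba4a at 96.8 ± 31.2 and Tubb4b at 83.4 ± 15.3, and neighbours in this order overlapped. The ranking depends on the length used. With the median transcript length Tuba4a led in every group, at 140, 130, 310 and 331 CPM per kb in WT fasted, HRD1Alb fasted, WT refed and HRD1Alb refed liver.

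**Figure D1:**
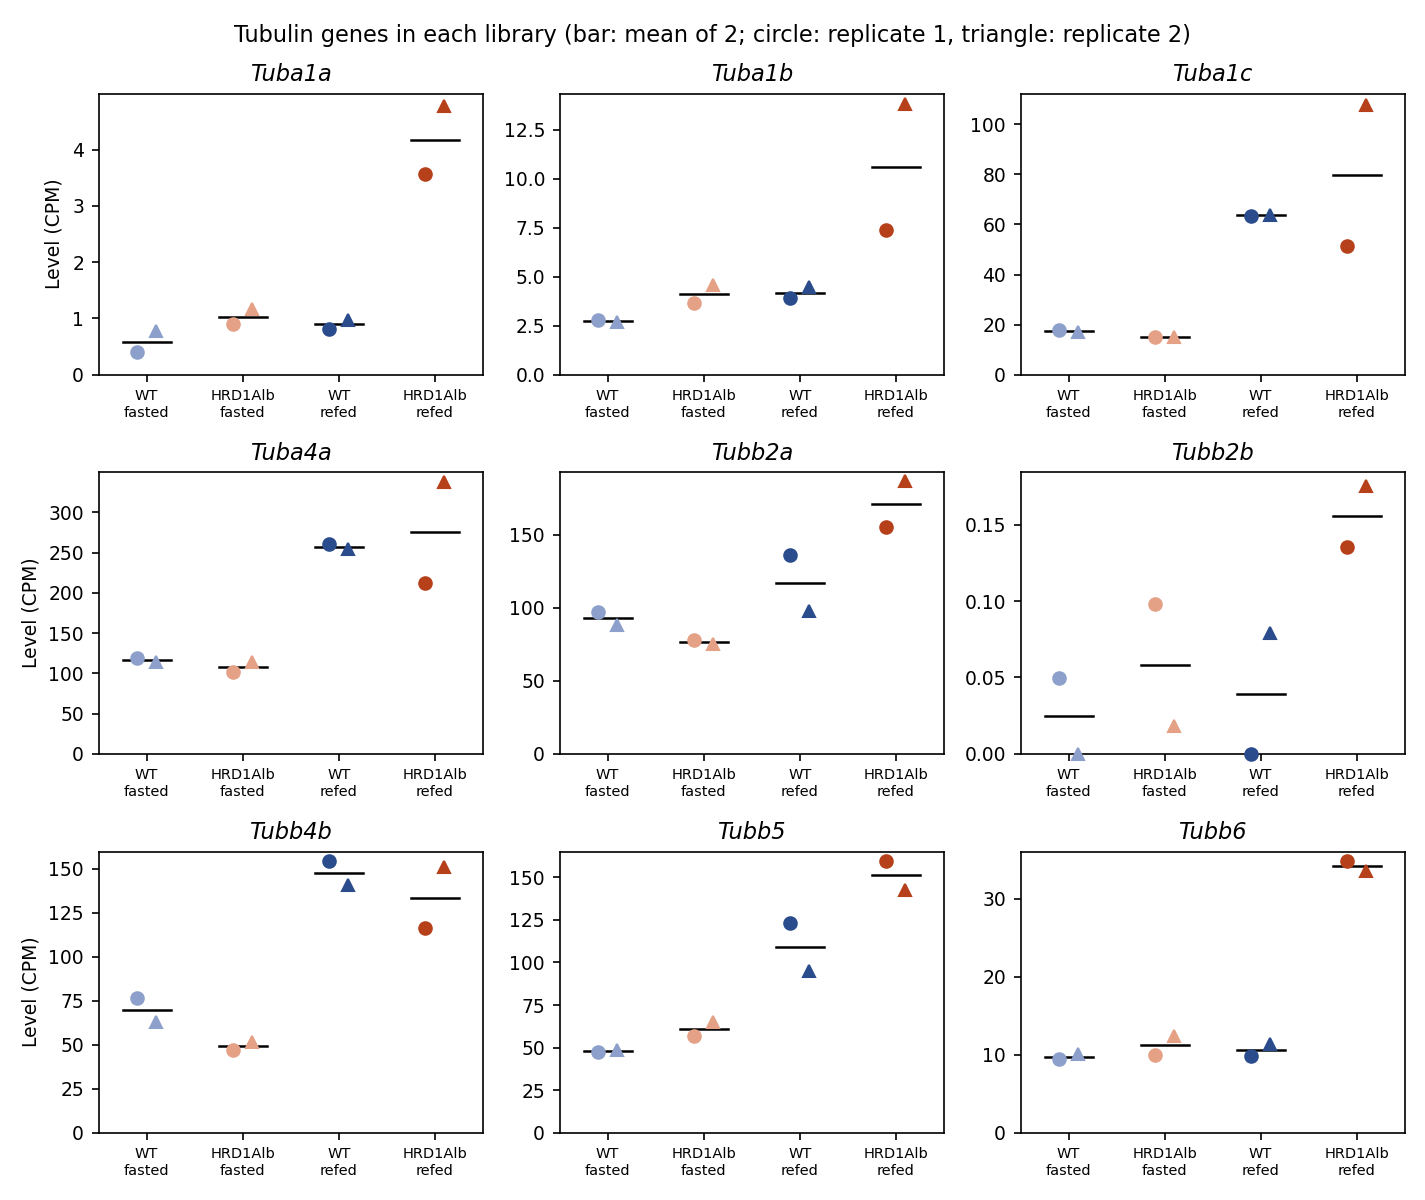
Level of each tubulin gene in CPM on a linear axis from 0, with 1 panel per gene and 1 point per library, circles for replicate 1 and triangles for replicate 2, and a bar at the mean of 2. Tubb6 lies between 9.43 and 12.44 CPM in 6 libraries and at 34.8 and 33.6 CPM in the refed libraries labelled HRD1Alb, while Tuba1c is higher in all 4 refed libraries than in any fasted one.

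Summed over the members, tubulin message was higher in every refed library than in every fasted one. The sum was 371 and 344 CPM in WT fasted liver, 313 and 340 CPM in HRD1Alb fasted liver, 752 and 669 CPM in WT refed liver, and 741 and 978 CPM in the refed libraries labelled HRD1Alb. The genotypes overlapped in refed liver, and HRD1Alb lay below WT in fasted liver. After a correction for transcript length the last pair of sums was 751 and 785 CPM. The ratio of the alpha to the beta members, each per kilobase, ran from 0.401 to 0.463 in the 4 fasted libraries. It was 0.542 and 0.654 in WT refed liver, and 0.430 and 0.648 in the refed libraries labelled HRD1Alb. With the median transcript length this ratio was 0.856 to 0.895, 1.01 to 1.22 and 0.752 to 1.16 in the same libraries, so the level of the ratio depends on the length used.

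Refeeding in WT liver asked how tubulin message differed 4 h after food. Tuba1c, Tubb4b and Tubb5 rose, so 3 of the 8 tested members were called higher, against 1.2% of all tested genes called higher and 1.41% called lower. The median log2 fold change of the 8 was 0.85, beside 0.00 over all tested genes, and all 8 values were above 0. Tuba1c, an alpha subunit of widespread use, was at 17.8 and 17.3 CPM in fasted and at 63.6 and 64.0 CPM in refed WT liver. Its log2 fold change was 1.86 ± 0.32 (SE, adjusted p = 0.0352, edgeR).

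Tubb4b, a broadly expressed beta subunit that also enters cilia, was at 76.5 and 62.8 CPM in fasted and at 154 and 141 CPM in refed WT liver, a log2 fold change of 1.08 ± 0.19 (adjusted p = 0.0376, edgeR). Tubb5, the most widely used beta subunit, was at 47.4 and 48.5 CPM and then at 123 and 94.7 CPM, a log2 fold change of 1.19 ± 0.18 (adjusted p = 0.0305, edgeR). In all 3 genes the refed WT libraries lay above the fasted ones, as they did in 30.8% of all tested genes, with 29.6% the other way round. With the replicate block Tubb4b lost its call (adjusted p = 0.0534, edgeR). Tuba4a, the alpha subunit that ends without the usual tyrosine codon, was at 119 and 113 CPM and then at 260 and 255 CPM without passing the test (log2 fold change 1.14 ± 0.23, adjusted p = 0.0505, edgeR). It passed in 7 of 16 alternatives.

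The other 4 values were smaller. Tubb2a was at 97.3 and 88.2 CPM in fasted and at 136 and 97.9 CPM in refed WT liver (log2 fold change 0.33 ± 0.20). Tuba1a had a log2 fold change of 0.60 ± 0.40 and Tuba1b of 0.61 ± 0.32. Tubb6 had one of 0.12 ± 0.18, with overlapping groups. Leaving out any 1 of the WT fasted, HRD1Alb fasted or WT refed libraries left 0 members called. With only the 4 libraries compared, Tuba1c, Tuba4a, Tubb4b and Tubb5 were called higher (adjusted p 0.00147 to 0.00856, edgeR), against 6.78% of the genes tested in that fit. Tuba1c kept a log2 fold change of 1.82 to 1.89 over all alternatives.

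The promoters of the 3 genes called higher for refeeding in WT liver are printed, a choice that rests on the threshold. They are the 250 bases before the RefSeq start on GRCm38.p6, for Tuba1c (chr15:99029641-99029890, plus strand), Tubb4b (chr2:25224703-25224952, minus strand) and Tubb5 (chr17:35838302-35838551, minus strand), the last of which overlaps the first bases of the GENCODE gene. Capitals mark CCAAT, the letters of the CCAAT box, and GGGCGG, those of the GC box, or their reverse complements. TATAAA, the letters of the TATA box, was also searched.
Tuba1c: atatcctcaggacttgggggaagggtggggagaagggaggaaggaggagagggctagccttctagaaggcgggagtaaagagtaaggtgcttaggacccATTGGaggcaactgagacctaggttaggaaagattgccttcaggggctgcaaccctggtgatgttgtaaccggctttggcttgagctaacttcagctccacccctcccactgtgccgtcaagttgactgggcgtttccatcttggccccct
Tubb4b: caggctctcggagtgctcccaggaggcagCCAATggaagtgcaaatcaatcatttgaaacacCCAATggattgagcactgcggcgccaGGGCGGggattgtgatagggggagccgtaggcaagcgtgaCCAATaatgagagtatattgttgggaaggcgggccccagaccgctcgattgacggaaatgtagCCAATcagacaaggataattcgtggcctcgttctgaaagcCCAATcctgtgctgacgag
Tubb5: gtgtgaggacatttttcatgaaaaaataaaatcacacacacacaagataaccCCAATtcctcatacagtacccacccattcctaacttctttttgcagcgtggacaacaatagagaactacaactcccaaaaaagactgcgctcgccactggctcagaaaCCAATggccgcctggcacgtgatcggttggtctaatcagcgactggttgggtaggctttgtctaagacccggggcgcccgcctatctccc

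CCAAT, searched on both strands, occurred 5 times in Tubb4b, 2 times in Tubb5 and 1 time in Tuba1c. At least 1 copy stood in 33.9% of 32851 promoters of the same length, at least 2 in 10.1% and at least 5 in 0.213%. GGGCGG stood in Tubb4b and in neither of the other two, against 32.7% of promoters. TATAAA stood in none of the 3, against 12.4%. CACGTG, the letters of an E-box, stood in Tubb5, against 6.02% of promoters. TGACGTCA, the full cAMP response element, and TTGCATCA, a composite ATF4 and C/EBP element, stood in none of the 3, against 1.55% and 0.792%. No 2 of these motifs overlapped in the printed windows. Of the other members with a promoter in the table, Tuba1a held the CCAAT box and the GC box, Tuba1b and Tuba4a the GC box, and Tubb2a the GC box, the TATA box and the cAMP response element. Tuba4a, which missed the threshold for refeeding in WT liver (adjusted p = 0.0505, edgeR), held no CCAAT. All of these are matches of letters and not sites.

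Refeeding in liver labelled HRD1Alb gave a call for each tested member. All 8 rose, against 5.43% of all tested genes called higher and 5.05% called lower. The log2 fold changes ran from 1.16 in Tubb2a to 2.40 in Tuba1c, with a median of 1.40 beside 0.02 over all tested genes. With the transcript length correction all 8 values were lower, from 0.80 in Tubb2a (adjusted p = 0.0401, edgeR) to 2.07 in Tuba1c. In each gene both refed libraries lay above both fasted ones, as in 29.2% of all tested genes, with 29.5% the other way round. Tuba1c was at 14.98 and 15.27 CPM in HRD1Alb fasted liver and at 51.6 and 108 CPM in the refed libraries labelled HRD1Alb (log2 fold change 2.40 ± 0.32, adjusted p = 0.00865, edgeR). The refed pair of Tuba1c lay on either side of the values in WT refed liver.

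Tubb6, a beta subunit that is more divergent and is linked to less stable microtubules, was at 10.01 and 12.44 CPM in fasted and at 34.8 and 33.6 CPM in refed liver (1.61 ± 0.18, adjusted p = 0.00591, edgeR). Tubb2a was at 77.8 and 75.4 CPM and then at 155 and 187 CPM (1.16 ± 0.20, adjusted p = 0.0175, edgeR). Tubb5 was at 56.6 and 65.2 CPM and then at 160 and 143 CPM (1.31 ± 0.18, adjusted p = 0.0103, edgeR). Tuba1a, Tuba1b, Tuba4a, Tubb2a and Tubb6 were called here and not in WT liver, where Tuba4a had an adjusted p of 0.0505 (edgeR). Whether the changes differ is tested with the interaction.

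Tubb4b was at 47.1 and 51.4 CPM in fasted and at 116 and 151 CPM in refed liver (log2 fold change 1.44 ± 0.19). Tuba4a was at 101 and 114 CPM and then at 212 and 338 CPM (1.35 ± 0.23). Tuba1a rose by 2.01 ± 0.37 and Tuba1b by 1.36 ± 0.32 on the log2 scale. The calls fell to 0 without either HRD1Alb fasted library or with only the 4 libraries compared, and to 5 without either WT refed library. They stayed at 8 without replicate 1 or replicate 2 of the refed libraries labelled HRD1Alb, when 24.8% and 10.7% of all tested genes were called higher. The refeeding comparison in WT liver and this one share no library.

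**Figure D2:**
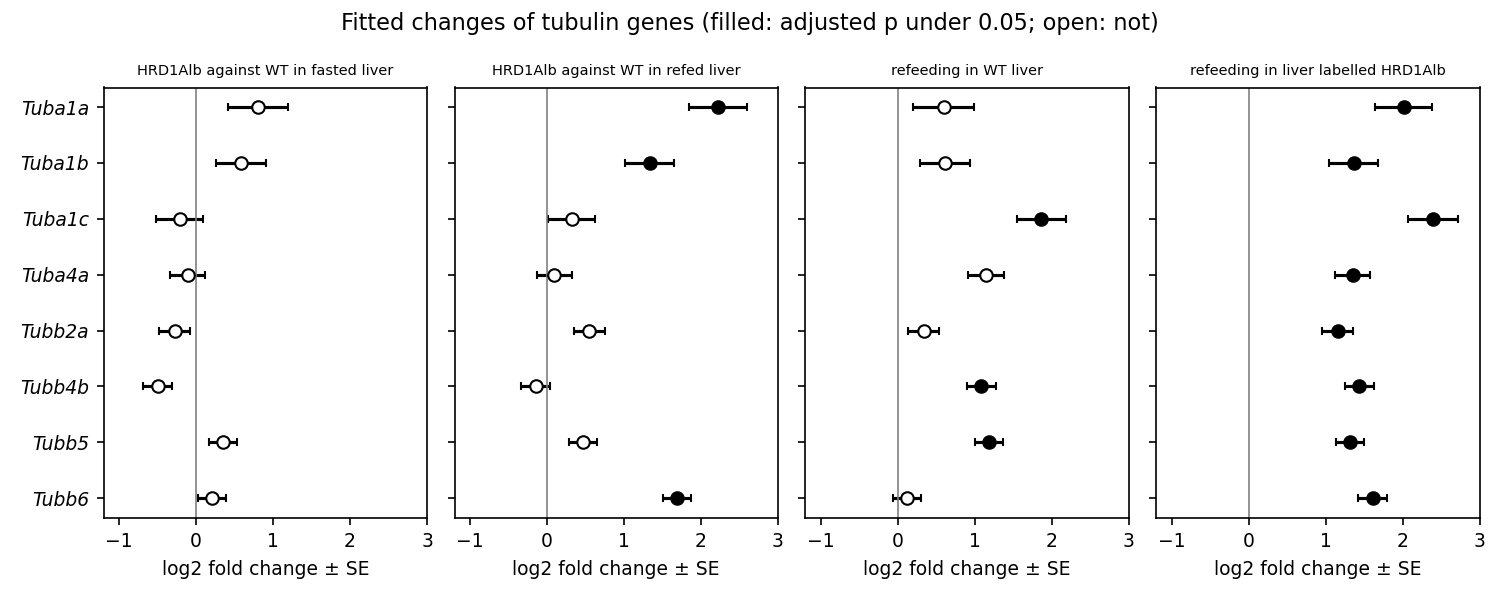
Fitted log2 fold change (x axis, ± SE) of the 8 tested tubulin genes in the 4 comparisons of groups, with filled points for adjusted p under 0.05 and open points otherwise. The 8 filled points of refeeding in liver labelled HRD1Alb lie from 1.16 to 2.40, and HRD1Alb against WT in fasted liver has none.

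In refed liver the genotype comparison asked where HRD1Alb and WT differed after food. Tuba1a, Tuba1b and Tubb6 rose in the libraries labelled HRD1Alb, 3 of 8 tested members called higher, against 7.09% of all tested genes called higher and 4.84% called lower. These were the 3 least abundant of the 8 per kilobase, and the more abundant ones did not pass. The comparison shares its libraries with the refeeding comparisons above, each of which uses 1 of its groups. Tubb6 was at 9.80 and 11.4 CPM in WT refed liver and at 34.8 and 33.6 CPM in the libraries labelled HRD1Alb, a log2 fold change of 1.69 ± 0.18 (adjusted p = 0.00820, edgeR).

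Tuba1a, an alpha subunit best known from developing neurons, was at 0.815 and 0.972 CPM in WT refed liver and at 3.57 and 4.78 CPM in the libraries labelled HRD1Alb (2.22 ± 0.38, adjusted p = 0.0185, edgeR). The counts behind these values were 33, 37, 211 and 218 reads. Tuba1b, a widely expressed alpha subunit, was at 3.90 and 4.46 CPM and at 7.38 and 13.8 CPM (1.34 ± 0.32, adjusted p = 0.0405, edgeR). Tuba1b was at 0.81 without replicate 2 of refed HRD1Alb and at 1.71 without replicate 1, and it lost its call in 6 of the 8 fits that left out 1 library (adjusted p 0.0734 to 0.0867 without any 1 fasted library, and 0.204 and 0.228 without a WT refed one, edgeR). In all 3 genes the labelled genotypes did not overlap, with HRD1Alb higher, as in 30.7% of all tested genes, with 30.1% the other way round. The values of Tuba1a and Tuba1b rest on sequence that the Tuba1 genes share.

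Tubb2a and Tubb5 also separated by HRD1Alb against WT in refed liver without passing the test (log2 fold changes 0.55 ± 0.20, adjusted p = 0.107, and 0.47 ± 0.18, adjusted p = 0.119, edgeR). The transcript length correction moved Tubb2a to 0.23 (adjusted p = 0.432) and Tubb4b from −0.15 to −0.48 (adjusted p = 0.0761, edgeR). Tuba1c, Tuba4a and Tubb4b overlapped, at 0.32 ± 0.31, 0.10 ± 0.23 and −0.15 ± 0.19. Their order between genotypes depends on 1 library. Without replicate 2 of refed HRD1Alb, Tuba1c was at −0.31 and Tuba4a at −0.28, and without replicate 1 they were at 0.75 and 0.39. In that last fit 6 members were called higher, and so were 25.0% of all tested genes. Without either WT refed library, or with only the 4 libraries compared, 0 members were called, while Tubb6 kept a log2 fold change of 1.44 to 1.80 over all alternatives.

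Tubb2b, a beta subunit of neurons, had 8 and 8 reads in the refed libraries labelled HRD1Alb and 2, 0, 5, 1, 0 and 3 reads in the WT fasted, HRD1Alb fasted and WT refed libraries. A count of 0 allows up to 3 reads, 0.0730 CPM in WT fasted replicate 2 and 0.0741 CPM in WT refed replicate 1. Tubb2b was not tested, and the shared windows with Tubb2a leave its reads uncertain.

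In fasted liver 0 of the 8 members were called between genotypes by edgeR and 0 by DESeq2, against 0.921% of all tested genes called higher and 0.433% called lower by edgeR. The 1 member with an unadjusted p under 0.05, among 2630 such genes, was Tubb4b. Its levels were 76.5 and 62.8 CPM in WT and 47.1 and 51.4 CPM in HRD1Alb fasted liver (log2 fold change −0.50 ± 0.19, adjusted p = 0.222, edgeR). Without either refed HRD1Alb library, which this comparison shares only through the estimate of spread, Tubb4b was called (adjusted p = 0.0279 and 0.0283, edgeR), when 11.8% and 11.6% of all tested genes were called lower. Tuba1a and Tuba1b, at 0.80 ± 0.39 and 0.59 ± 0.32, and Tubb5, at 0.35 ± 0.18, were also higher in both HRD1Alb libraries than in both WT libraries without passing the test, and Tuba1c (−0.21 ± 0.31) and Tubb2a (−0.28 ± 0.20) were lower in both. Of all tested genes 30.6% separated upward and 34.2% downward in this way. The median over the members was 0.05, beside −0.02 over all tested genes.

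The interaction of genotype with refeeding tests whether the refeeding change differed between genotypes. It was above 0 in all 8 members, from 0.13 ± 0.26 in Tubb5 to 1.49 ± 0.26 in Tubb6, with 0 called by edgeR against 0.0% of all tested genes called higher. Tubb6, Tubb2a (0.82 ± 0.28) and Tuba1a (1.42 ± 0.54) had an unadjusted p under 0.05, among 1209 such genes. DESeq2 called Tubb6 (adjusted p = 0.000691), against 0.398% of tested genes called higher by DESeq2. Tubb6 was also called by edgeR without either refed HRD1Alb library (adjusted p = 0.00298 without replicate 1 and 0.0437 without replicate 2, range 0.000691 to 0.904 over all alternatives), when 15.4% and 0.458% of all tested genes were called higher. Without replicate 1, 5 members were called.

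The isotype mix differed between groups. Shares are of the summed CPM per kb of the 4 alpha members. Tuba4a made up 79.2% in WT fasted, 78.2% in HRD1Alb fasted, 72.1% in WT refed and 67.3% in refed liver labelled HRD1Alb. Tuba1c made up 17.1%, 15.8%, 25.6% and 26.9% in the same order, and the fasted and refed libraries did not overlap for either gene. With the median transcript length Tuba4a made up 90.1%, 89.6%, 86.0% and 83.1% and Tuba1c 8.15%, 7.56%, 12.8% and 14.0%, and the fasted and refed libraries again did not overlap. These shares are means of 2 libraries and were not tested. Tuba8, an alpha subunit outside the members, is left out of the sum. It was at 3.09, 6.76, 4.71 and 20.2 CPM per kb in WT fasted, HRD1Alb fasted, WT refed and HRD1Alb refed liver. In every group Tuba8 lay above Tuba1a and Tuba1b. Shares with Tuba8 in the sum are not given, so the separation of fasted from refed libraries holds for the alpha members only.

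In beta-tubulin, Tubb4b was highest in WT refed liver, with 41.4% to 46.1% of the sum against 28.1% to 36.4% in the other 6 libraries. Tubb6 made up 2.89% in WT refed liver and 7.35% in the refed libraries labelled HRD1Alb. Tubb2a held 46.2% of beta-tubulin in WT fasted and 34.0% in WT refed liver. These shares depend on the length used. With the median transcript length Tubb2a held 32.5% and 22.1% and Tubb5 31.1% and 38.1% in WT fasted and WT refed liver, where the longest transcript gave Tubb5 14.6% and 19.3%, and Tubb4b was still highest in WT refed liver (35.2% to 39.4%).

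**Figure D3:**
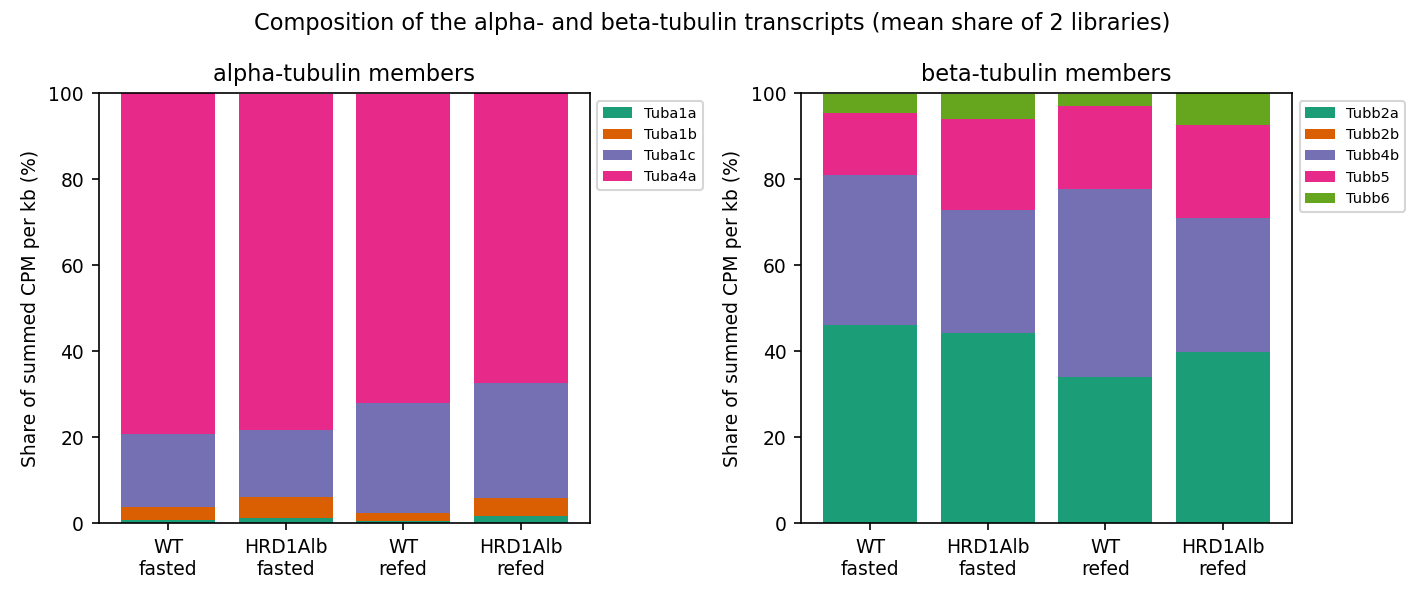
Mean share (y axis, %) of each gene in the summed CPM per kb of the alpha (left) and beta (right) members in the 4 groups, 2 libraries each, without error bars. Tuba1c takes 25.6% and 26.9% of the sum of the alpha members in the refed groups against 17.1% and 15.8% in the fasted ones. Tubb2b is too low to see.

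Across the 8 libraries the members formed loose sets. The log2 CPM of Tuba1c and Tuba4a correlated at Pearson r 0.997, that of Tuba1a and Tubb6 at 0.956, and that of Tuba1a and Tubb4b at 0.430. The 5 genes most like the summed tubulin level, of 11911 compared, were Smarcal1 (r 0.995), Cks1b (0.992), Pold2 (0.991), Hdhd3 (0.991) and Prpf31 (0.987). Smarcal1 anneals stalled replication forks, Cks1b is a cofactor of cyclin-dependent kinases, Pold2 is a subunit of DNA polymerase delta and Prpf31 is a splicing factor. Cks1b averaged 2.59, 2.13, 7.30 and 10.1 CPM in WT fasted, HRD1Alb fasted, WT refed and HRD1Alb refed liver. These values describe 8 libraries that share 4 groups, and such genes are found by search.

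Calls in the lists that follow stand beside those of all tested genes given above, 0.921% higher and 0.433% lower for HRD1Alb against WT in fasted liver, 7.09% and 4.84% for HRD1Alb against WT in refed liver, 1.2% and 1.41% for refeeding in WT liver, and 5.43% and 5.05% for refeeding in liver labelled HRD1Alb. In the same order, 2630, 4775, 2339 and 4538 of the 14328 tested genes had an unadjusted p under 0.05 (edgeR). For these 4 comparisons no share of all genes called by DESeq2 is given, so the DESeq2 counts below have no background beside them. Of 11 other tubulins in the files, 5 were tested. Tuba8, an alpha subunit, was at 9.14 and 12.2 CPM in WT refed liver and at 34.9 and 56.6 CPM in the libraries labelled HRD1Alb (log2 fold change 2.10 ± 0.30, adjusted p = 0.0121, edgeR). It also rose with refeeding in liver labelled HRD1Alb (1.58 ± 0.29). In fasted liver Tuba8 was at 7.93 and 6.03 CPM in WT and at 16.9 and 13.7 CPM in HRD1Alb. Both HRD1Alb libraries lay above both WT ones, as in 30.6% of all tested genes, with 34.2% the other way round. For that comparison edgeR called 0 of the 5, unadjusted p was under 0.05 in 1 and DESeq2 called 1. Tubd1, the delta-tubulin of centrioles, rose with refeeding in WT (1.18 ± 0.23) and in liver labelled HRD1Alb (1.36 ± 0.23). Tuba3a, Tuba3b and Tubal3 were at 0 in every library. The median over the 5 was −0.30, −0.08, 0.52 and 0.85 for HRD1Alb against WT in fasted, HRD1Alb against WT in refed, refeeding in WT and refeeding in liver labelled HRD1Alb.

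Newly made tubulin is folded by prefoldin and the CCT ring, and joined by the cofactors TBCA to TBCE. Of 20 tested chaperones of this set, 0 were called for HRD1Alb against WT in fasted liver, 1 higher for HRD1Alb against WT in refed liver (7.09% of all tested genes were), 0 for refeeding in WT liver and 4 higher for refeeding in liver labelled HRD1Alb (5.43% of all tested genes were, edgeR). The 1 call in refed liver is no larger a share than that of all genes. Where edgeR called 0, unadjusted p was under 0.05 in 1 and 2 genes and DESeq2 called 0. The medians were −0.09, 0.39, 0.20 and 0.63. Tbcb, a cofactor that holds alpha-tubulin, was at 33.9 to 37.5 CPM in WT refed liver and at 56.9 and 93.2 CPM in the libraries labelled HRD1Alb (log2 fold change 1.07 ± 0.23, adjusted p = 0.0330, edgeR). With refeeding in liver labelled HRD1Alb Tbcb (1.83 ± 0.24), Tbcc (1.41 ± 0.34), Cct3 (1.12 ± 0.19) and Cct7 rose, the last named after its values were seen.

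Of 15 tested enzymes that modify tubulin, Ttll12, a member of the tubulin tyrosine ligase-like family, rose with refeeding in WT (1.03 ± 0.17) and in liver labelled HRD1Alb (1.17 ± 0.17). Atat1, which acetylates alpha-tubulin in the lattice, fell with refeeding in liver labelled HRD1Alb, from 19.0 and 24.5 CPM to 5.06 and 7.14 CPM (−1.83 ± 0.28, adjusted p = 0.0126, edgeR). It was also lower in the refed libraries labelled HRD1Alb than in WT refed liver (−1.38 ± 0.28, adjusted p = 0.0278, edgeR). Ttll5, a polyglutamylase, was lower for HRD1Alb against WT in refed liver (−0.998 ± 0.246) and Agbl5, a deglutamylase, fell with refeeding in liver labelled HRD1Alb (−1.09 ± 0.24). For HRD1Alb against WT in fasted liver edgeR and DESeq2 called 0 and 0 had an unadjusted p under 0.05. The medians of this list were 0.00, −0.16, 0.09 and −0.27.

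Of 19 tested proteins that bind microtubules, 4 were called by edgeR, all for HRD1Alb against WT in refed liver, and DESeq2 called 6 for refeeding in liver labelled HRD1Alb. In the 3 comparisons with 0 called, unadjusted p was under 0.05 in 4 (HRD1Alb against WT in fasted), 3 (refeeding in WT) and 7 genes (refeeding in liver labelled HRD1Alb). Over all 14328 tested genes these counts were 2630, 2339 and 4538. Clip2, a plus-end linker, rose (1.19 ± 0.25), as did Stmn1, which sequesters free dimers and is named after its values were seen. Camsap3, which caps minus ends, fell (−0.84 ± 0.18), as did Mapre2, an end-binding protein (−0.75 ± 0.18). Of 11 genes of the gamma-tubulin ring complex and nucleation, Nedd1, a targeting subunit, fell with refeeding in liver labelled HRD1Alb (−0.95 ± 0.24) and no other was called by edgeR. DESeq2 called 0, 1 and 1 of them for HRD1Alb against WT in fasted, HRD1Alb against WT in refed and refeeding in WT liver, where unadjusted p was under 0.05 in 0, 3 and 1. The medians over the 4 comparisons were −0.13, −0.19, −0.07 and −0.17 for the binding proteins and −0.12, −0.52, −0.00 and −0.42 for the nucleation genes.

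Actin and intermediate filament genes were set beside the tubulins. Of 14 tested, Actg1 (2.17 ± 0.30), Actb (1.41 ± 0.24) and Lmnb2 (1.04 ± 0.18) rose with refeeding in WT liver, and 6 rose with refeeding in liver labelled HRD1Alb, led by Actg1 (2.69 ± 0.30), Krt8 (2.42 ± 0.21) and Krt18 (2.41 ± 0.34). Krt8 and Krt18 are the keratin pair of hepatocytes. Vim (1.92 ± 0.40), Krt18 (1.69 ± 0.34), Des (1.57 ± 0.39) and Krt8 were higher for HRD1Alb against WT in refed liver, and 0 were called for HRD1Alb against WT in fasted liver by edgeR or DESeq2, with 1 at an unadjusted p under 0.05. The medians were −0.01, 1.18, 0.34 and 1.17.

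**Figure D4:**
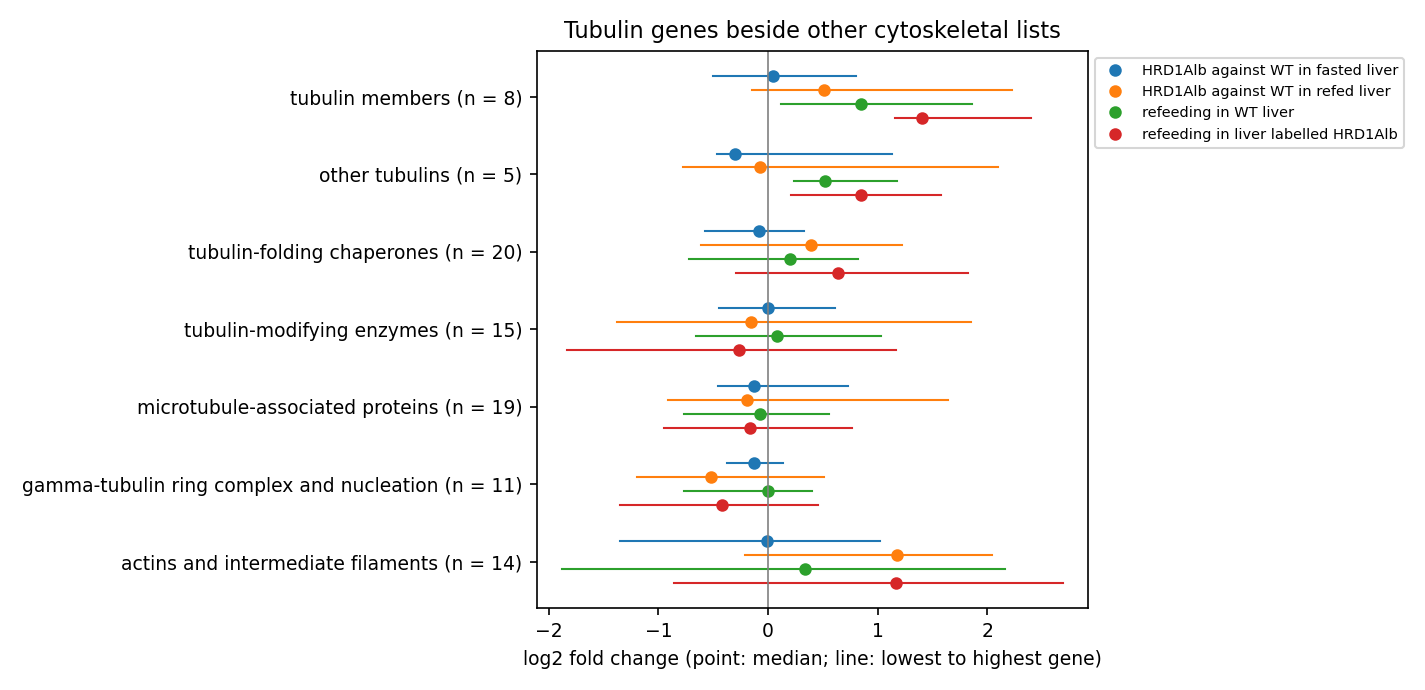
Log2 fold changes (x axis) of the tubulin genes and 6 other cytoskeletal lists, with the number of tested genes in brackets, a point at the median and a line from the lowest to the highest gene, coloured by comparison. The tubulin genes have a median of 1.40 for refeeding in liver labelled HRD1Alb, and the nucleation genes one of −0.42.

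Markers of other cells moved with the genotype. All 7 tested macrophage markers were called higher for HRD1Alb against WT in refed liver, led by Marco (4.05 ± 0.66), Cd68 (2.01 ± 0.26) and Cd5l (1.83 ± 0.39), with a summed level of 106 CPM in both WT refed libraries and of 221 and 466 CPM in those labelled HRD1Alb. Cd68 (2.20 ± 0.27) and Emr1 (1.47 ± 0.23), which encodes F4/80, were called higher for HRD1Alb against WT in fasted liver, with sums of 92.5 to 104 CPM in WT and 242 to 331 CPM in HRD1Alb. Tubb6 was at 9.43 and 10.05 CPM in the same WT fasted and at 10.01 and 12.44 CPM in the HRD1Alb fasted libraries. In refed liver it was at 9.80 and 11.4 CPM in WT and at 34.8 and 33.6 CPM in the libraries labelled HRD1Alb. The part of macrophages in the Tubb6 values was not tested.

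Of 8 stellate cell and fibroblast markers, Col1a1 (2.71 ± 0.58), Col3a1 (2.16 ± 0.43), Col1a2 (1.90 ± 0.46) and Des were higher for HRD1Alb against WT in refed liver, with sums of 176 to 219 CPM in WT refed and 384 to 542 CPM in the libraries labelled HRD1Alb. In fasted liver the sums were 196 to 398 CPM in WT and 477 to 486 CPM in HRD1Alb. Of 10 mitotic markers, Top2a (1.86 ± 0.36), Ccnb2 (1.79 ± 0.41), Cdk1 (1.65 ± 0.39) and Aurkb, the last named after its values were seen, were higher there, with sums of 8.30 to 9.48 CPM and 16.0 to 21.9 CPM. In fasted liver the mitotic sums were 8.20 to 10.4 CPM in WT and 23.2 to 26.5 CPM in HRD1Alb. There edgeR called 0 of the 10 and DESeq2 called 9, without a DESeq2 share of all genes to set beside them. Unadjusted p was under 0.05 in 9 of the 10, against 2630 of all 14328 tested genes. Of 7 lymphocyte markers Ptprc (1.03 ± 0.23) was higher in refed liver labelled HRD1Alb, with sums of 8.51 to 10.89 and 19.67 to 21.02 CPM, and the fasted sums were 7.37 to 8.58 CPM in WT and 15.8 to 16.2 CPM in HRD1Alb.

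The 8 hepatocyte markers, all above 0 in every group, summed to 111921 to 118108 CPM in WT refed and 65602 to 102667 CPM in the refed libraries labelled HRD1Alb, and Apob was lower (−1.24 ± 0.20). In fasted liver they summed to 138347 to 149755 CPM in WT and 89057 to 89890 CPM in HRD1Alb, where edgeR called 0, DESeq2 called 1 and 4 had an unadjusted p under 0.05. None of the 6 cholangiocyte or 6 endothelial markers was called by edgeR or DESeq2 in any comparison, and unadjusted p was under 0.05 in 1 to 2 cholangiocyte markers per comparison and in 0 endothelial ones. Their refed sums were 32.2 to 36.0 against 29.1 to 53.2 CPM and 104 to 120 against 98.6 to 132 CPM. In fasted liver the cholangiocyte sums were 42.4 to 68.6 CPM in WT and 32.8 to 37.2 CPM in HRD1Alb. The endothelial ones were 107.1 to 122.2 and 122.3 to 140.8 CPM. The cholangiocyte medians for HRD1Alb against WT were −0.97 in fasted and 0.59 in refed liver. The part of these cells in the tubulin values was not tested.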

How the data were processed

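Liver RNA-seq was deposited as read counts per gene symbol, 1 table per library, not normalized. The authors' methods name ERANGE for counting, and the submitters' processing notes name cutadapt, STAR, HTSeq and DESeq2 on mm10, without versions, so which tool made the deposited counts is not given in the sources used here, nor are strand and read length. Counts were analysed with edgeR 4.0.16 (R 4.3.3): TMM factors, filterByExpr (minimum count 10, minimum total 15), 1 quasi-likelihood model over 4 groups and 8 libraries, and Benjamini-Hochberg adjustment over 14328 genes, called at 0.05. CPM use TMM library sizes. In data simulated from these libraries for HRD1Alb against WT in refed liver, over 14328 genes, 9 of 100 genes changed 2-fold and 88 of 100 changed 4-fold were recovered. DESeq2 1.42.0, RLE factors, other filters, fewer samples, a replicate block, a transcript length correction and leaving out each library were the alternatives, and the median transcript length for ratios and shares was added after the data were seen. With 2 against 2, an exact permutation test cannot go below p = 0.333. Symbols were matched to GENCODE M21 (20961 of 23337) for position and length, and 7 members had a RefSeq promoter. Depth was 40210576 to 49117080 counts per library, and the limits given for 0 counts cover counting error only. The members and all gene lists were chosen with earlier results of these data known. Named were all members and, from each other list and comparison, up to 3 genes per direction with the largest called change and a mean of at least 1 CPM, plus the 5 genes most correlated with the tubulin sum. Tubb6 sequence is not reported here.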

Additional observations from a re-analysis of the deposited data

How the results depend on the processing

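Leaving out 1 library at a time gave between 0 and 1 members called for HRD1Alb against WT in fasted liver (0 with all libraries), between 0 and 6 for HRD1Alb against WT in refed liver (3), between 0 and 4 for refeeding in WT liver (3), between 0 and 8 for refeeding in liver labelled HRD1Alb (8), and between 0 and 5 for the interaction (0). With only the libraries of the comparison, 0 members were called for HRD1Alb against WT in refed liver, 0 for refeeding in liver labelled HRD1Alb and 4 for refeeding in WT liver. DESeq2 called 1 for the interaction. The group left with 1 library was then assumed to vary like the others, and the cause of the remaining changes was not tested.

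Some fold changes turned with 1 library. Leaving out 1 library at a time, the log2 fold change for HRD1Alb against WT in refed liver ran from −0.31 to 0.75 in Tuba1c, from −0.28 to 0.39 in Tuba4a and from −0.35 to 0.024 in Tubb4b, with both ends given by leaving out replicate 2 or replicate 1 of refed HRD1Alb. The interaction ran from −0.095 to 0.96 in Tuba1c and from −0.17 to 0.50 in Tuba4a, with the same libraries, and from −0.055 to 0.34 in Tubb5, with replicate 2 or 1 of WT refed.

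Calls among the 70 tested genes of the 5 other microtubule lists also varied, among others when 1 library was left out. For HRD1Alb against WT in refed liver edgeR called 4 higher and 4 lower, against 7.09% and 4.84% of all tested genes. DESeq2 called 7 and 6 there, and with only the 4 libraries compared 0 and 0 were called. For refeeding in liver labelled HRD1Alb the edgeR counts were 7 and 3, against 5.43% and 5.05% of all tested genes. DESeq2 gave 14 and 11, and the 4 libraries alone 0 and 0. For refeeding in WT liver edgeR called 2 and 0, against 1.2% and 1.41%. With only the 4 libraries compared the counts were 6 and 5, when 6.78% of the genes tested in that fit were called higher. The share called lower in that fit is not given. The DESeq2 counts have no share of all genes beside them.

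The replicate numbers are shared between groups, but the deviations of same-numbered libraries correlated at −0.01 to 0.22, not above 0.1 in every pair, so they were not treated as pairs. Adding the replicate block took the call of Tubb4b for refeeding in WT liver and changed no other member's call. It gave 0, 3, 2, 8 and 0 members called for HRD1Alb against WT in fasted, HRD1Alb against WT in refed, refeeding in WT, refeeding in liver labelled HRD1Alb and the interaction. With the transcript length correction as well it called 0, 3, 4, 8 and 0. No share of all genes called is given for these fits, so the counts have no background beside them. Depth limits Tubb2b, with at most 8 reads, and Tuba1a, with 16 to 218.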
